A study of Saccharomyces cerevisiae BY4741 with 22 samples.

Results

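The 3' end of 18S rRNA was compared between yeast cells that carry unmutated Dim1, in the strain Rps14 + Dim1, and cells that carry Dim1-E85A, in the strain Pno1 + Dim1-E85A. The 5 libraries compared, 2 of Rps14 + Dim1 (replicates 1 and 2) and 3 of Pno1 + Dim1-E85A (replicates 6, 7 and 8), are the 18S libraries of these strains made at 25 °C with a linker that holds a unique molecular identifier (UMI). They were chosen by strain, temperature and linker, with earlier results of these data known, out of 22 libraries in the series, 18 of them of 18S rRNA. Each library is a 3'-RACE experiment, in which a linker is ligated to the RNA 3' end before reverse transcription, so that the last nucleotide of every RNA is read next to the linker. The deposited value is the number of reads covering each nucleotide of the 35S rRNA precursor.

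All strains were BY4741 derivatives in which galactose promoters drove the genomic copies, and growth in YPD, a glucose medium, shut those copies off. Rps14 + Dim1 cells had Gal::Rps14 and Gal::Dim1 in the genome and received TEF::Rps14 and Cyc1::Dim1. Pno1 + Dim1-E85A cells had Gal::Pno1 and Gal::Dim1 in the genome and received TEF::Pno1 and Cyc1::Dim1-E85A, and GEO's description names them the wild type of the series. The strains therefore differ in the Dim1 allele and also in which second protein, Rps14 or Pno1, was depleted and replaced, and the effects of these differences cannot be told apart in these libraries. Every Dim1, mutant or not, came from a plasmid with the Cyc1 promoter. The labels describe Rps14 + Dim1 as the control for what Dim1-E85A itself does to 18S rRNA ends. Another strain, Pno1-KKKF + Dim1-E85A (Gal::Pno1 and Gal::Dim1 with TEF::Pno1-KKKF and Cyc1::Dim1-E85A), has 3 libraries made the same way, and its values are set beside the comparison. 18S rRNA was taken from purified 40S subunits and cDNA of these UMI libraries was cleaned up on beads.

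In yeast, 18S rRNA is cut out of the precursor on both sides. The endonuclease Nob1 makes the last cut, at site D, which leaves the mature 3' end and removes the remainder of the first internal transcribed spacer (ITS1). An earlier cut at site A2, further 3' within ITS1, separates the small-subunit and large-subunit parts of the precursor, so that the 20S pre-rRNA that reaches Nob1 carries an ITS1 tail. Pno1 (also called Dim2) is an assembly factor that binds this RNA near site D. Dim1 is an assembly factor and methyltransferase that places 2 methyl groups on each of 2 neighbouring adenosines in the last helix of 18S rRNA. Rps14 (uS11) is a ribosomal protein that lies near the 3' end of 18S rRNA on the platform of the small subunit. Dimethylation at the Watson-Crick face of adenosine is known to hinder reverse transcriptases, which can stop there, misincorporate or pass over nucleotides.

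Positions are counted from the mature end. By the RefSeq gene table for assembly R64, mature 18S rRNA has 1800 nucleotides and occupies positions 701 to 2500 of the precursor, and ITS1 the next 361. Position 0 is nucleotide 1800, negative positions lie inside 18S rRNA and positive positions in ITS1. The adenosines that Dim1 methylates, nucleotides 1781 and 1782, lie at -19 and -18. No genome coordinate is given, since the files name no genome build, and no sequence is shown. Ends were read as lasting drops of the depth, that is, drops that are not regained further 3'. A skipped nucleotide is one where depth is missing although it is present further 3'.

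The libraries held 2943984 and 3518259 ends within 50 nucleotides of position 0 in Rps14 + Dim1, and 3088186, 3466530 and 3151824 in Pno1 + Dim1-E85A. At this depth the 95% Wilson interval of a library's share reached at most 0.0120 percentage points to either side for ends and 0.0344 for skips, counting error only. Reads began at -61 and depth was highest at -17 in all 5 libraries, so an end upstream of -17 cannot be seen. Libraries of the same strain differed beyond sampling noise in every pair (chi-square 289 or more, the smallest for Pno1 + Dim1-E85A replicates 7 and 8), so none was a copy of another. Pno1 + Dim1-E85A replicate 6 stood apart from replicates 7 and 8, with the fewest truncated ends and the most skips at -21 and ends at +11 to +50, and results were also computed without it. Throughout, n is 2 for Rps14 + Dim1 and 3 for Pno1 + Dim1-E85A, and exact permutation tests of 2 libraries against 3 cannot go below p = 0.1.

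Reads of Rps14 + Dim1 skipped nucleotides next to and at the dimethylated adenosines 6.78-fold to 11.9-fold as often as reads of Pno1 + Dim1-E85A. Over all positions from -60 to 0, edgeR's quasi-likelihood test called 28 of the 45 positions tested (62.2%), 6 higher in Rps14 + Dim1 (13.3%) and 22 lower (48.9%). The 6 higher positions were -23, -22, -21, -20, -19 and -18, one unbroken run that ends on nucleotide 1782. The run was drawn from these calls, so by definition none of the other 39 positions was called higher. The libraries of both strains did not overlap at 37 of the 45 positions (82.2%), so lack of overlap by itself sets no position apart. Neighbouring positions share reads, so these tests are not independent of each other.

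The peak of the run, as placed by the alignment, lay 2 nucleotides upstream of the first dimethylated adenosine. No sequence was available here to check whether a gap in a read could be placed equally well at neighbouring nucleotides. Exact positions within the run are therefore those of the alignment. At -21, which is nucleotide 1779, 10.1% and 11.6% of Rps14 + Dim1 reads skipped the nucleotide, against 1.60%, 0.875% and 0.506% of Pno1 + Dim1-E85A reads. Both Rps14 + Dim1 libraries lay far above all 3 others, while the Pno1 + Dim1-E85A libraries varied about 3-fold among themselves. The means were 10.9% ± 1.09 (SD, n = 2) and 0.995% ± 0.559 (SD, n = 3), a fitted 10.9-fold difference (log2 3.45, SE 0.99, edgeR adjusted p = 0.00129). As odds of skipping averaged per library the difference was 13.5-fold (log2 3.76, SE 0.50), at an exact permutation p of 0.1, the smallest that the design allows. Position -21 was given this test of its own because it was known from earlier results of these data. The edgeR call at -21 depended on single libraries: its adjusted p was 0.0792 without Rps14 + Dim1 replicate 1, 0.0580 without Rps14 + Dim1 replicate 2 and 0.0569 without Pno1 + Dim1-E85A replicate 7, at log2 differences of 3.55, 3.34 and 3.37.

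Position -22 (nucleotide 1778) behaved almost as a copy of -21. It was skipped by 9.91% and 11.4% of Rps14 + Dim1 reads, against 1.57%, 0.855% and 0.492% of Pno1 + Dim1-E85A reads (log2 difference 3.45, SE 0.98, edgeR adjusted p = 0.00114). Leaving out the same 3 libraries in turn raised its adjusted p to 0.0765, 0.0552 and 0.0569. Skips at -22 numbered 98.2% and 98.0% of those at -21 in Rps14 + Dim1, and 97.9%, 97.6% and 97.3% in Pno1 + Dim1-E85A, so in both strains the skips at these neighbours were nearly equal in number. Depth does not show whether the same reads skipped both.

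The dimethylated adenosines themselves were skipped less often than the peak, and again more in Rps14 + Dim1. At -19 (nucleotide 1781) the share was 1.76% and 1.72% in Rps14 + Dim1, against 0.279%, 0.110% and 0.0774% in Pno1 + Dim1-E85A (fitted 11.2-fold, log2 3.49, SE 0.37, edgeR adjusted p = 1.31e-15). At -18 (nucleotide 1782) it was 0.278% and 0.287%, against 0.0432%, 0.0162% and 0.0118% (11.9-fold, log2 3.58, SE 0.21, edgeR adjusted p = 5.74e-34). The Rps14 + Dim1 libraries thus lay close together at both adenosines and above every Pno1 + Dim1-E85A library. The Pno1 + Dim1-E85A libraries spread about as widely here as at the peak, although edgeR gave smaller SEs. As odds averaged per library, the SE was 0.55 for the adenosine pair and 0.50 at the peak, each with an exact permutation p of 0.1. The smaller edgeR p at the adenosines therefore does not make them more certain than the peak. Position -20, between the peak and the adenosines, was skipped by 1.69% and 1.64% of Rps14 + Dim1 reads and by 0.313%, 0.149% and 0.131% of Pno1 + Dim1-E85A reads (8.42-fold, log2 3.07, SE 0.38, edgeR adjusted p = 2.5e-12). At -23 the shares were 0.270% and 0.366%, against 0.0660%, 0.0422% and 0.0324% (6.78-fold, log2 2.76, SE 0.22, edgeR adjusted p = 2.07e-23). These 4 positions were called in each of the 5 fits that left out a library, with adjusted p of at most 0.0129.

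**Figure D1:**
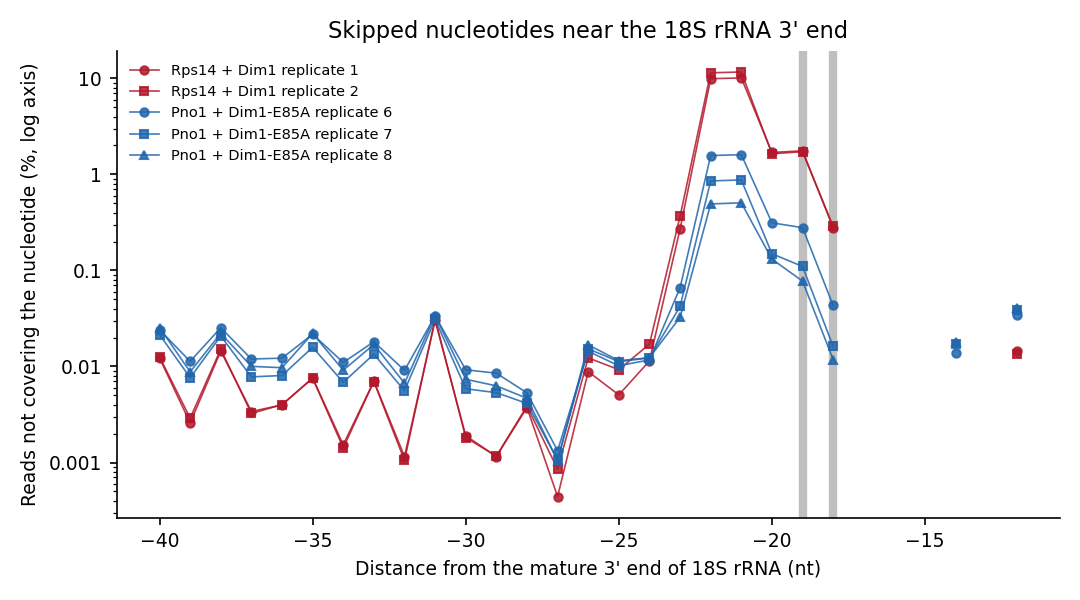
Share of reads that skip each nucleotide (percent of the reads present further 3', log axis) from -40 to -10, 1 line per library, for Rps14 + Dim1 (2 libraries) and Pno1 + Dim1-E85A (3 libraries). From -23 to -18 both Rps14 + Dim1 lines lie above all others, with a peak at -22 and -21, and at -12 they lie below them. Grey bars mark the dimethylated adenosines, and shares of 0 cannot be drawn on the log axis.

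Upstream, the run ended at -23. At -24, next to it and chosen after its values were seen, the shares were 0.0114% and 0.0171% in Rps14 + Dim1, against 0.0117%, 0.0123% and 0.0123% in Pno1 + Dim1-E85A, and the groups overlapped (log2 difference 0.23, edgeR adjusted p = 0.365). On the other side, the next nucleotides give no measure of the border: a skip cannot be seen at -17, where depth is highest, and at -16 and -15 none was seen but ends could mask up to 45 and 163 skipped reads per library. At -27, nucleotide 1773, a cytidine of the same helix that yeast acetylates with Kre33, skips stayed at 0.0004% and 0.0009% in Rps14 + Dim1 and 0.0013%, 0.0011% and 0.0010% in Pno1 + Dim1-E85A (log2 difference -0.80, edgeR adjusted p = 0.145). Skips at -27 were few in both strains. The groups did not overlap there, and without single libraries the log2 difference ran from -1.37 to -0.42.

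Summed over ranges, the odds of a skip at -23 to -20 were 12.4-fold higher in Rps14 + Dim1 (log2 3.64, SE 0.48) and those at the adenosine pair 13.3-fold higher (log2 3.73, SE 0.55). They were 0.570-fold at -40 to -24 (log2 -0.81, SE 0.13) and 0.261-fold at -17 to -1 (log2 -1.94, SE 0.10). At -60 to -41 the log2 difference was -0.35 (SE 0.23). None of these 5 ranges had overlapping groups, and each had an exact permutation p of 0.1, also after adjustment over the 5. When the 3 Pno1-KKKF + Dim1-E85A libraries were counted with Pno1 + Dim1-E85A (2 against 6), the log2 differences were 3.56 at -23 to -20 and 3.67 at the pair, each with an adjusted exact permutation p of 0.0446. Before adjustment these p were the smallest that the 28 arrangements of 2 against 6 allow. The 6 libraries are of 2 strains, so they are not replicates of 1 condition.

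Relative to the peak at -21, skips at the adenosines had overlapping ratios in both strains, and those at -23, -22 and -20 did not. Skips at -20 numbered 16.7% and 14.1% of those at -21 in Rps14 + Dim1, against 19.5%, 17% and 25.9% in Pno1 + Dim1-E85A. For -19 the ratios were 17.4% and 14.8%, against 17.4%, 12.6% and 15.3%, and for -18 they were 2.75% and 2.46%, against 2.69%, 1.85% and 2.33%. The groups overlapped at both adenosines. At -20 they did not overlap, nor at -22 (above), nor at -23, with 2.67% and 3.14% in Rps14 + Dim1 and 4.12%, 4.82% and 6.41% in Pno1 + Dim1-E85A. No test was made of these ratios. Positions -23 to -18 held 99.5% of the skips counted from -40 to 0 in both Rps14 + Dim1 libraries, against 93.1%, 89.1% and 81.5% in Pno1 + Dim1-E85A. The run was drawn from positions called higher in Rps14 + Dim1, so a larger share in that strain was built in. Skips upstream of -40 were left out of this total, and counting them would lower every one of these shares.

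Skips in this run were thus seen in all Dim1-E85A libraries with the UMI linker as well, at a lower level. The 6 of them, 3 with Pno1 and 3 with Pno1-KKKF, spanned 0.506% to 1.60% at -21 (median 0.910%), and the Pno1-KKKF libraries had 0.907%, 0.912% and 1.19%. The 10 Dim1-E85A libraries made with the universal linker spanned 0% to 0.00105% at -21 (median 0.000266%), that is, 0 to 29 reads per library, and had no skip at -18, where a count of 0 allows up to 0.000115%. At -19 these 10 libraries had 0.00387% to 0.0152%. Linker, the way the cDNA was purified and, in part, temperature differ between UMI and universal libraries and cannot be told apart, and no universal-linker library of Rps14 + Dim1 was analysed here. What the level in the UMI libraries of Dim1-E85A stems from was not tested.

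**Figure D2:**
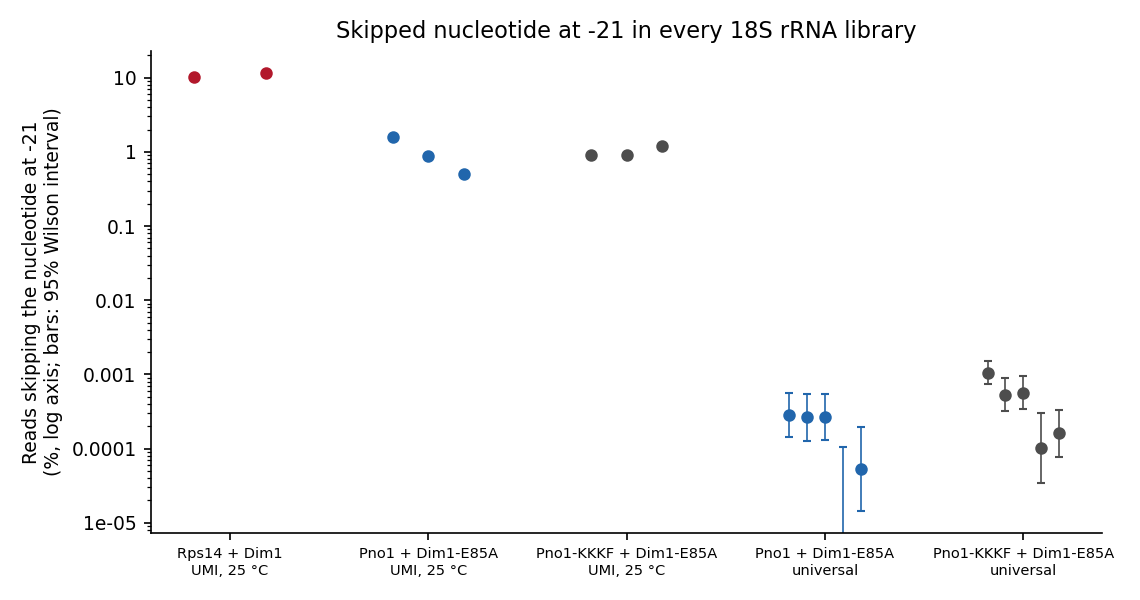
Share of reads that skip position -21 (percent, log axis) in each of the 18 libraries of 18S rRNA, with 95% Wilson intervals, grouped by strain and linker. The Rps14 + Dim1 libraries sit at 10.1% and 11.6%, the 6 Dim1-E85A libraries with the UMI linker at 0.506% to 1.60%, and the 10 with the universal linker at 0.00105% or less. One of these 10 is at 0%, and only the upper bound of its interval, 0.000106%, can be drawn.

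The 22 positions skipped less in Rps14 + Dim1 lay on both sides of the run, 20 upstream of it and 2 downstream. At -12 the shares were 0.0145% and 0.0136% in Rps14 + Dim1, against 0.0340%, 0.0389% and 0.0409% in Pno1 + Dim1-E85A (0.370-fold, log2 -1.43, SE 0.22, edgeR adjusted p = 2.37e-09). At -14 none was seen in Rps14 + Dim1, while 0.0137%, 0.0171% and 0.0178% of Pno1 + Dim1-E85A reads skipped it, and edgeR called it lower. Ends at -15 in Rps14 + Dim1 can mask a skip there: the drop of depth from -15 to -14 allows at most 0.00408% and 0.00398%. Both positions lie between the methylated pair and the mature end, and these were the only positions downstream of -18 with enough skips to be tested.

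Of the 22 positions from -46 to -25, a range drawn after the values were seen, 19 were called lower in Rps14 + Dim1, with a median log2 difference of -1.36, against -0.52 over all 45 positions tested. The smallest p among them were at -34, -44, -32, -45, -29, -43, -42 and -30. At -34, 0.00153% and 0.00142% of Rps14 + Dim1 reads were missing, against 0.0110%, 0.00684% and 0.00914% of Pno1 + Dim1-E85A reads (log2 -2.61, SE 0.31, edgeR adjusted p = 2.14e-13). These shares are small, and a read that starts downstream of a position counts there as a skip. From -32 to -27 the depth gained 21 and 7 reads in Rps14 + Dim1, against 240, 157 and 178 in Pno1 + Dim1-E85A, so reads that start late moved with this result. Measured against the depth within 10 nucleotides in place of all depth further 3', 17 positions were called in all, 10 of them lower, and lower calls upstream of the run fell to 8, against 20 with all depth further 3'. By that measure -45 and -42 no longer passed (adjusted p = 0.756 and 0.464) and -43 turned to a log2 difference of 4.75. Between -60 and -47, the remainder of that side and so also drawn after the values were seen, 1 of 14 positions was called. By the ranges used for the sums, 7 of 20 positions from -60 to -41 and 13 of 17 from -40 to -24 were called lower.

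At the 3' end itself, nearly all 18S rRNA was mature in both strains. Position 0 took 99.2% and 99.0% of ends in Rps14 + Dim1, against 99.3%, 98.8% and 98.8% in Pno1 + Dim1-E85A, and the groups overlapped. Per position, edgeR called 33 of 52 positions (63.5%), 32 lower in Rps14 + Dim1 (61.5%) and 1 higher (1.92%). The groups did not overlap at 38 of the 52 (73.1%). None of the 32 lower positions lay inside 18S rRNA: all were in ITS1, from +3 to +210. The median log2 difference over the 52 positions was -1.81, or -1.67 with positions where a whole group had no end set to their bound.

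Fewer 18S rRNA molecules of Rps14 + Dim1 kept ITS1 nucleotides. Extended ends, up to +50, made up 0.0327% and 0.0338% of ends in Rps14 + Dim1, against 0.0706%, 0.0667% and 0.0684% in Pno1 + Dim1-E85A. Replicates lay close to each other in both strains and the groups did not overlap. The odds were 0.485-fold (log2 -1.04, SE 0.03), at an exact permutation p of 0.1 and 0.3 after adjustment over the 3 shares tested. The difference was not spread evenly over ITS1: it was small next to position 0 and large beyond +10.

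At +1, the commonest extended end, there was little between the strains. It held 560 and 679 ends in Rps14 + Dim1, against 544, 815 and 677 in Pno1 + Dim1-E85A, or 192 ± 1.96 and 209 ± 29.9 per 1000000 ends (SD). The groups overlapped (log2 difference -0.12, SE 0.24, edgeR adjusted p = 0.725), as they did at +2 (log2 -0.31, SE 0.38, adjusted p = 0.557). Together, +1 and +2 held 215 and 233 ends per 1000000 ends in Rps14 + Dim1, against 204, 281 and 263 in Pno1 + Dim1-E85A (log2 odds difference -0.14, SE 0.15, exact permutation p = 0.5).

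From +3 to +10 all 8 positions tested were called lower in Rps14 + Dim1, with log2 differences from -0.76 to -2.28. Under DESeq2's default size factors +4 turned to 0.018, with position 0 itself at 0.78. The range held 84.9 and 88.4 ends per 1000000 ends in Rps14 + Dim1, against 198, 193 and 181 in Pno1 + Dim1-E85A, 0.456-fold in odds (log2 -1.13, SE 0.05, exact permutation p = 0.1, adjusted p = 0.2 over 8 ranges). Each strain's libraries lay close together. Position +9 had 14 and 15 ends in Rps14 + Dim1, against 61, 66 and 54 in Pno1 + Dim1-E85A (0.243-fold, log2 -2.04, SE 0.27, edgeR adjusted p = 0.00424). At +3 there were 79 and 102 ends, against 152, 203 and 173 (0.515-fold, log2 -0.96, SE 0.26, edgeR adjusted p = 0.0223), and at +10 there were 68 and 61, against 187, 132 and 131 (0.433-fold, log2 -1.21, SE 0.34, edgeR adjusted p = 0.0267). Of these 8, +9 alone was called in every fit that left out 1 library, and +5 in none of them. Without Rps14 + Dim1 replicate 1, the calls at the 7 positions other than +9 were lost. Leaving out a library ended the call at +3 for Rps14 + Dim1 replicates 1 and 2 and Pno1 + Dim1-E85A replicates 7 and 8 (adjusted p up to 0.138), and at +10 for Rps14 + Dim1 replicates 1 and 2 and Pno1 + Dim1-E85A replicate 8 (up to 0.150).

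From +11 to +50 Rps14 + Dim1 had far fewer ends. Rps14 + Dim1 had 80 and 60 ends there and Pno1 + Dim1-E85A had 942, 670 and 758, which is 27.2 and 17.1 against 305, 193 and 240 per 1000000. The odds were 11.2-fold lower in Rps14 + Dim1 (log2 -3.48, SE 0.38), at an exact permutation p of 0.1 and an adjusted p of 0.2. Of 19 positions tested, 18 were called lower, with a median log2 difference of -4.20 over the 19, or -3.76 with the positions at 0 in Rps14 + Dim1 set to their bound. The remaining one, +14, named after its values were seen, had 8 and 0 ends, against 28, 21 and 13 (log2 -2.30, edgeR adjusted p = 0.0932).

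In this stretch the ends of Pno1 + Dim1-E85A were spread over many positions, and the most frequent was +25. It had 0 and 2 ends in Rps14 + Dim1, against 151, 92 and 175 in Pno1 + Dim1-E85A (log2 -6.98, SE 0.82, edgeR adjusted p = 0.00424). Position +18 had 1 and 0, against 39, 30 and 26 (log2 -5.67, SE 0.71, edgeR adjusted p = 0.00424), and +13, at the near border, had 24 and 22, against 72, 81 and 69 (0.315-fold, log2 -1.67, SE 0.27, edgeR adjusted p = 0.00559). Of these 3 positions, the strains differed least at +13, the one nearest to the mature end. The other positions with the smallest p in this stretch had 1 and 2 ends in Rps14 + Dim1 against 14, 14 and 12 in Pno1 + Dim1-E85A at +16, 1 and 0 against 15, 16 and 22 at +17, 0 and 2 against 29, 28 and 35 at +27, and 0 and 1 against 12, 14 and 15 at +28. At +32 Rps14 + Dim1 had no end in either library and Pno1 + Dim1-E85A had 9, 10 and 10, at least 3.20-fold lower in Rps14 + Dim1 against a floor of 3 ends per library. Position +24, chosen after its values were seen, was at 0 in both Rps14 + Dim1 libraries too and held 40, 16 and 25 ends in Pno1 + Dim1-E85A, at least 9.08-fold lower in Rps14 + Dim1 by the same floor. From +14 to +34, a range drawn after the values were seen, there were 30 and 18 ends in all in Rps14 + Dim1, against 745, 466 and 602 in Pno1 + Dim1-E85A.

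Further into ITS1, past +50, ends were rare in both strains and rarer in Rps14 + Dim1. There were 68 and 71, against 388, 265 and 300 in Pno1 + Dim1-E85A (0.223-fold in odds, log2 -2.16, SE 0.23, exact permutation p = 0.1, adjusted p = 0.2). The groups did not overlap. Most of these ends sat at +72, +73 and +74, with 53 and 49 in Rps14 + Dim1 and 267, 185 and 212 in Pno1 + Dim1-E85A. Position +73 alone had 24 and 32, against 140, 111 and 111 (0.231-fold, log2 -2.11, SE 0.31, edgeR adjusted p = 0.00424). All 6 positions tested beyond +50 were called lower, the others being +72, +74, +110, +208 and +210, which are named after their values were seen. Between +200 and +230, the part of ITS1 around site A2, where 20S pre-rRNA ends, Rps14 + Dim1 had 6 and 0 ends and Pno1 + Dim1-E85A had 37, 34 and 38. The groups did not overlap, and the log2 odds difference of -4.35 (SE 1.98, exact permutation p = 0.1, adjusted p = 0.2) is no bound, since with 1 library at 0 it depends on the 0.5 added to the counts.

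**Figure D3:**
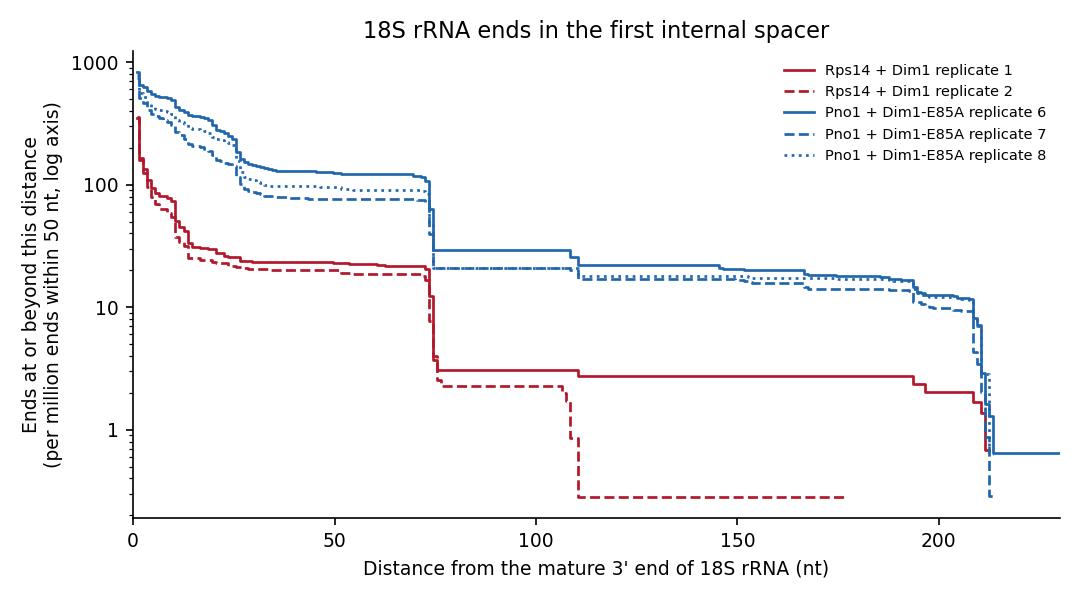
Ends at or beyond each distance from the mature end (per 1000000 ends within 50 nucleotides, log axis) through ITS1, 1 line per library of Rps14 + Dim1 and Pno1 + Dim1-E85A. The Rps14 + Dim1 lines lie below all others up to +200, fall away more steeply over the first 10 nucleotides, and step down at +72 to +74 as the others do; a line stops where a library has no further end.

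The make-up of the extended ends differed accordingly. Of all extended ends up to the end of ITS1 (1032 and 1261 in Rps14 + Dim1, against 2569, 2576 and 2456 in Pno1 + Dim1-E85A), 54.3% and 53.8% were at +1 in Rps14 + Dim1, against 21.2%, 31.6% and 27.6% in Pno1 + Dim1-E85A. Ends at +11 to +50 made up 7.75% and 4.76%, against 36.7%, 26.0% and 30.9%. Molecules with 1 extra nucleotide were thus the majority of extended 18S rRNA in both Rps14 + Dim1 libraries and a minority in all 3 Pno1 + Dim1-E85A libraries. The share at +3 to +10 hardly differed, at 24.4% ± 0.310 in Rps14 + Dim1 and 24.3% ± 1.46 in Pno1 + Dim1-E85A (SD). In Pno1-KKKF + Dim1-E85A, 23.4% ± 3.32 of extended ends were at +1 and 42.9% ± 3.17 at +11 to +50 (SD, n = 3), so on both counts the other Dim1-E85A strain lay on the same side of Rps14 + Dim1 as Pno1 + Dim1-E85A did. No test was made of these shares, which follow from the counts above.

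Truncated ends, those inside 18S rRNA, had overlapping groups in sum. They made up 0.781% and 0.992% in Rps14 + Dim1, against 0.678%, 1.09% and 1.13% in Pno1 + Dim1-E85A. Against ends at position 0 the log2 odds were -0.10 apart, with an SE of 0.30 and an exact permutation p of 0.8, and without single libraries it ran from -0.33 to 0.077, so its sign was not settled. All ends other than position 0 (miscleaved) differed by -0.15 (SE 0.28, exact permutation p = 0.6). At -18 to -11, ends were few but the groups did not overlap, with 0.0153% ± 0.000546 in Rps14 + Dim1 and 0.0134% ± 0.00148 in Pno1 + Dim1-E85A (SD, log2 odds difference 0.20, SE 0.10, exact permutation p = 0.2, adjusted p = 0.32). Of 16 truncated positions tested, edgeR called 1, at -14, and none lower. An SE of 0.30 on the log2 scale leaves room for a modest difference in either direction.

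The same truncated ends were preferred in both strains. The commonest, -4, had 8901 and 13625 ends in Rps14 + Dim1, against 7545, 13878 and 13921 in Pno1 + Dim1-E85A (log2 difference -0.07, SE 0.28, edgeR adjusted p = 0.842). The next, -1, had 8984 and 11425, against 8401, 13544 and 12207 (log2 -0.15, SE 0.19, edgeR adjusted p = 0.557). Without Pno1 + Dim1-E85A replicate 6 the log2 difference at -1 was -0.30, with an edgeR adjusted p of 0.0162. Whether -1 was called thus depended on that library. Together they held 74.8% ± 4.26 of truncated ends in Rps14 + Dim1 and 74.2% ± 1.77 in Pno1 + Dim1-E85A (SD). The third, -9, held 8.07% ± 2.99 and 8.41% ± 1.20 in the same order, and -8 and -7 held 3.63% and 3.38% in Rps14 + Dim1 and 2.73% and 3.62% in Pno1 + Dim1-E85A. Their log2 differences of -0.17, 0.25 and -0.22 did not pass (edgeR adjusted p of 0.719 or more).

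Among -4 to -1 the largest difference was at -3, with 548 and 695 ends in Rps14 + Dim1 and 779, 1123 and 1112 in Pno1 + Dim1-E85A. The groups did not overlap in ends per 1000000 ends (192 ± 8.06 and 310 ± 51.8, SD), and the log2 difference of -0.69 (SE 0.25) had an edgeR adjusted p of 0.0552. Without Pno1 + Dim1-E85A replicate 6 it was -0.82, with an adjusted p of 0.0144. At -2 the log2 difference was -0.32 (SE 0.33) and at position 0 it was 0.00, both not called. At -14 the 32 and 55 ends of Rps14 + Dim1 stand against 0 in all 3 Pno1 + Dim1-E85A libraries, whose reads skip that nucleotide. An end that falls together with such a dip is counted further upstream, so this 0 is no measurement and no fold is given.

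**Figure D4:**
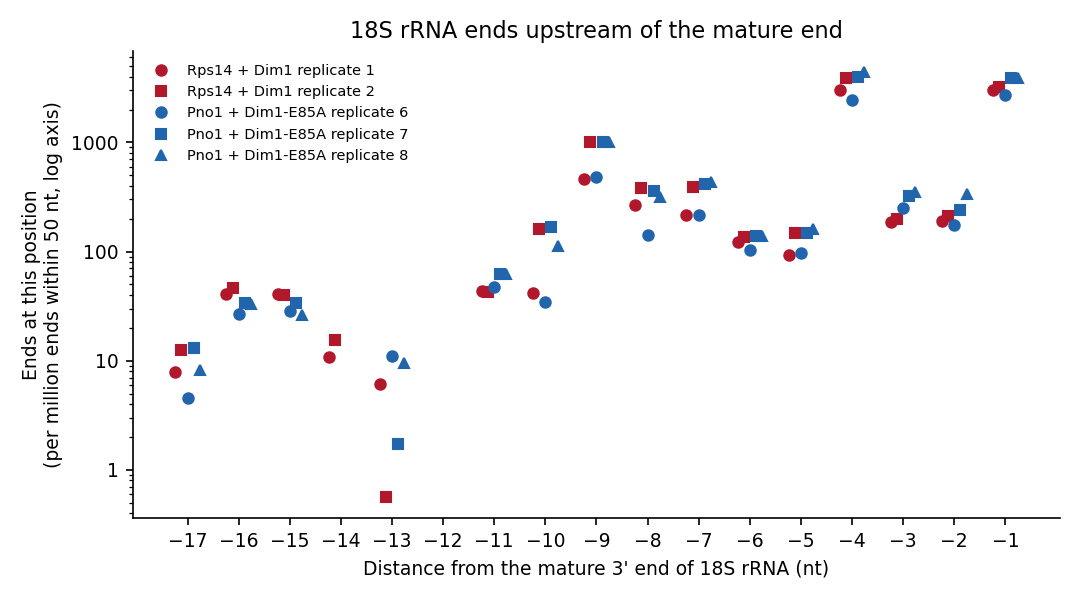
Truncated ends per 1000000 ends (log axis) at -17 to -1, 1 point per library of Rps14 + Dim1 and Pno1 + Dim1-E85A. Both strains peak at -4, -1 and -9 with overlapping libraries, while at -3 the Rps14 + Dim1 libraries lie below the others; counts of 0, among them -14 in Pno1 + Dim1-E85A, cannot be drawn.

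**Figure D5:**
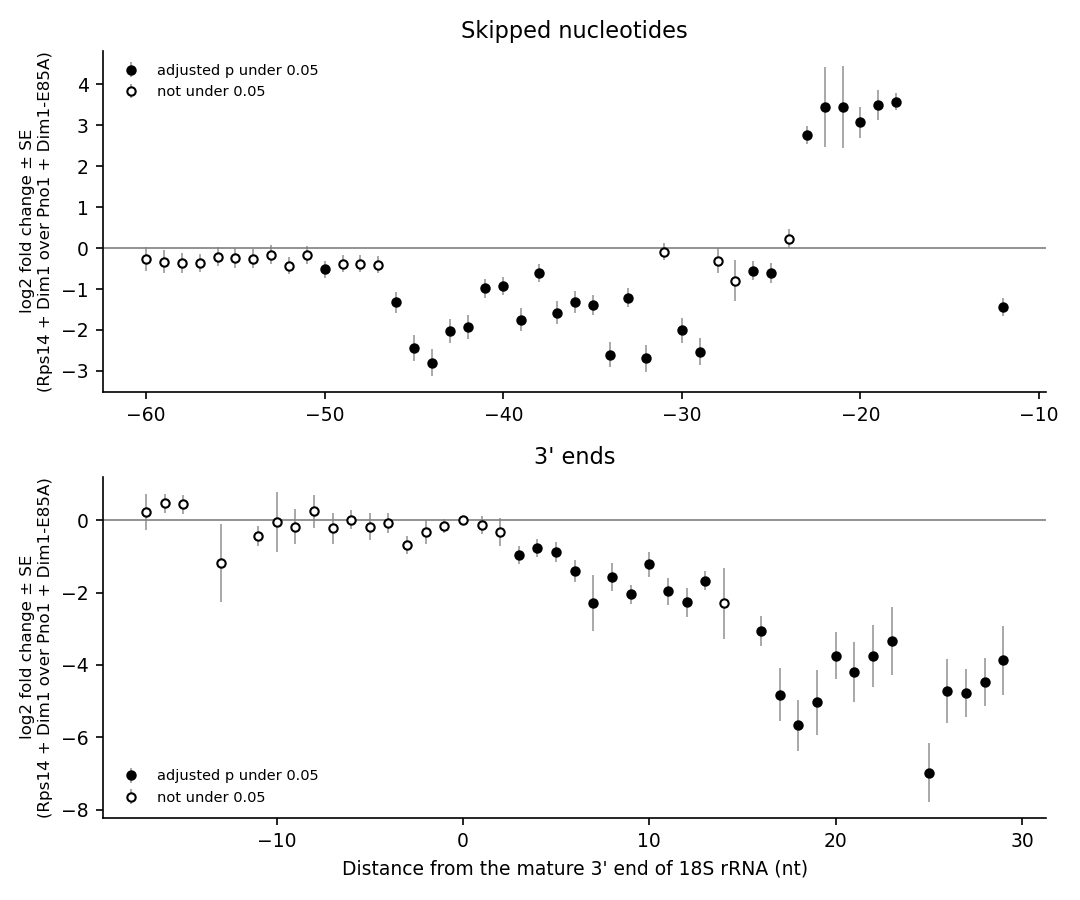
Log2 difference, Rps14 + Dim1 over Pno1 + Dim1-E85A, with its SE from edgeR, per position for skipped nucleotides and for ends; filled points passed an adjusted p of 0.05. Skips are higher from -23 to -18 and mostly lower upstream of them, and ends are not called from -17 to +2 and lie below 0 from +3 on, with every plotted position called except +14. Positions where a whole strain is at 0 (-14 in both panels, +24 and +32) and ends beyond +34 are left out.

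All end differences above are relative to the total number of ends, of which position 0 makes up about 99%. Other scalings shift every position together. TMM normalization moved position 0 itself to a log2 difference of 0.41 and called 24 positions, 23 of them lower in Rps14 + Dim1. DESeq2's default size factors moved position 0 to 0.78 and called 22, of which 13 were lower and 9 higher. Under that scaling a position differs from the mature end by its distance from 0.78, not from 0.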

How the data were processed

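The deposited values are whole-number counts of reads covering each of the 6858 nucleotides of the 35S precursor, 1 file per library, per the file headers. Per the submitters' processing notes, the authors' tools included Bowtie2 2.2.9, UMI-tools 1.1.2, SAMtools 1.1.0, bedtools 2.17.0, cutadapt 3.5, Trim Galore 0.6.1 and FastQC 0.11.4. No source used here gives their settings or says whether UMIs served to remove duplicates. PCR copies are not independent molecules, and every interval or floor (3 counts) therefore covers counting error alone. Replicates are biological according to the labels.

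From these counts, the running maximum of depth from the 3' side was taken at each nucleotide, ends as its drops and skips as the maximum minus the depth. Shares of ends were taken over the 50 nucleotides on either side of position 0. They were compared as log2 odds against ends at position 0 (skips against reads not skipped), with 0.5 added to each count, in two-sided exact permutation tests with Benjamini-Hochberg adjustment within 3 shares, 8 end ranges and 5 skip ranges. Counts per position were tested by the quasi-likelihood test of edgeR 4.0.16 in R 4.3.3, with all ends, or for skips the running maximum, as library size. Positions needed at least 10 counts in at least 2 libraries, and an adjusted p under 0.05 was called. DESeq2 1.42.0 was an alternative, and the rest was computed with numpy 2.4.6, scipy 1.17.1, pandas 2.3.3 and matplotlib 3.10.9 in Python 3.11.15. The scripts were tested on simulated data.

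The positions named by rule were, for ends, 0, -4 to +10, the 5 most frequent other ends of each strain and up to 10 called positions per direction with the smallest p. For skips they were -22 to -15, -27, the 5 most skipped positions of each strain and the same called positions. Others are said to be chosen after their values were seen. The libraries, ranges and positions were chosen with earlier results of these data known. Alternatives changed the derivation, window, added value, filter, normalization, tool, skip baseline and libraries.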

Additional observations from a re-analysis of the deposited data

How the results depend on the processing

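No paired analysis was possible because the strains compared, Rps14 + Dim1 replicates 1 and 2 and Pno1 + Dim1-E85A replicates 6 to 8, share no replicate number. All differences here are log2, Rps14 + Dim1 over Pno1 + Dim1-E85A. With 5 libraries, no exact test of shares could pass 0.05. Setting negative drops of depth to 0, which counts skips as ends, gave 2.51 for truncated ends, 2.46 for miscleaved ends, -1.20 for -18 to -11 and -0.13 for ends at 0. With the 3 Pno1-KKKF + Dim1-E85A UMI libraries added, the skip differences were -2.01 at -17 to -1, 3.67 at -19 and -18, 3.56 at -23 to -20, -0.83 at -40 to -24 (adjusted exact permutation p = 0.0446 each) and 3.68 at -21 (exact permutation p = 0.0357). Called positions numbered 12 for ends with a minimum of 50 ends, which left 28 tested, and 17 for skips against the depth within 10 nucleotides, where -43 turned to 4.75. Leaving out 1 library gave 22 to 29 called positions for ends and 23 to 40 for skips, 40 without Rps14 + Dim1 replicate 2. It gave -0.33 to 0.077 for truncated ends (0.0077 without Pno1 + Dim1-E85A replicate 7, 0.036 without replicate 8, 0.077 without Rps14 + Dim1 replicate 1), -0.37 to 0.021 for miscleaved ends, and -0.36 to 0.18 for -10 to -3 (0.045, 0.085 and 0.18 without the same 3 libraries). Single truncated positions turned sign without a library, -4 between -0.29 and 0.097, -7 between -0.70 and 0.15, -8 between -0.056 and 0.51 and -9 between -0.84 and 0.28. TMM normalization turned +1 (0.29), +2 (0.024), -1 (0.26), -2 (0.089), -4 (0.31), -7 (0.11) and -9 (0.12), and DESeq2's default size factors turned +1 (0.67), +2 (0.47), +4 (0.018), -1 (0.65), -2 (0.49), -3 (0.11), -4 (0.73), -7 (0.57) and -9 (0.61), both because they move position 0 itself. The other causes were not tested.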

Other observations

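Outside the comparison, the 10 universal-linker libraries of Dim1-E85A 18S rRNA gave values at -12, -14 and -22. Positions -12 and -14 were called lower in Rps14 + Dim1, and -22 was called higher. Linker, the way the cDNA was purified and, in part, temperature differ between these 10 libraries and Rps14 + Dim1. At -12 they ran from 0.0152% to 0.0537% (median 0.0240%), so all of them lay above the 0.0145% and 0.0136% of Rps14 + Dim1, as the UMI libraries of Pno1 + Dim1-E85A did. At -14 they ran from 0% to 0.0155% (median 0.00447%), against 0% in both Rps14 + Dim1 libraries, where ends can mask skips. At -22 they ran from 8.24e-05% to 0.00124%, against 9.91% and 11.4% in Rps14 + Dim1.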
